A study of Mus musculus with 155 samples.

Results

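Notch1, Mfng, Bmpr2 and Smad9 are 4 of the 3422 genes in a table of single brain cells of mice aged 8 to 10 weeks. They were taken by name from its measured genes of Notch and BMP signalling, with earlier results of these data known. Other genes of both pathways, such as Psen2 and Smad5, were measured too and are described below. The cells were sorted from the wall of the lateral ventricle (subventricular zone) and the corpus callosum, the white matter above it, and SMART-Seq2, which reads whole transcripts of polyadenylated RNA, was run on each cell in its own well. OligNBL (40 cells, positive for both reporters, CB6-Tg(Gad1-EGFP)G42Zjh/J crossed with Olig2-tdTomato TH39Gsat/Mmcd), OL (22 cells, Tomato, Olig2-tdTomato TH39Gsat/Mmcd) and NBL (27 cells, GFP, CB6-Tg(Gad1-EGFP)G42Zjh/J) were taken 6 days after an injection of LPC, a lipid that strips myelin. O (29 cells, Tomato, the same strain as OL) and NB (37 cells, GFP, the same strain as NBL) came from healthy mice that had no injection. Each reporter is a transgene placed under Olig2 or Gad1 (Gad67), so a population is defined by reporter fluorescence and not by the RNA described here, and strain differs wherever the gate differs. The titles of the 40 OligNBL cells carry the control mark, whereas their other labels give a lesion, which is followed here. The labels give 5 mice per condition and tie no cell to a mouse. Each population was therefore 1 sample, populations were not tested against each other, and a difference below has no replicate check.

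Notch receptors such as Notch1 are cut when a neighbouring cell presents a ligand, and the released part joins the DNA-binding protein RBPJ to switch genes on; in the subventricular zone the pathway is known for keeping stem cells undifferentiated, and in white matter for holding back oligodendrocyte maturation. Mfng (manic fringe) is a Golgi enzyme that adds a sugar to Notch and so changes which ligands activate it. In BMP signalling the ligand joins a type II receptor such as Bmpr2 with a type I receptor, which phosphorylates Smad1, Smad5 or Smad9 (also called Smad8); in the adult ventricular wall BMP is known to favour glial over neuronal fates, and in progenitors to oppose the oligodendrocyte fate.

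On GRCm38 (GENCODE vM21) Notch1 lies on chromosome 2 from 26457903 to 26516663 on the minus strand, Mfng on chromosome 15 from 78755882 to 78773475 on the minus strand, Bmpr2 on chromosome 1 from 59763400 to 59879014 on the plus strand and Smad9 on chromosome 3 from 54755582 to 54801257 on the plus strand. The long noncoding genes 0610009E02Rik and Gm13568 overlap Notch1 on the opposite strand. As the counting is not stated to use strand, their reads cannot be told apart from those of Notch1 where they overlap. On the same strand, the microRNA gene Mir6996 lies in the span of Notch1 and Gm38125 in that of Bmpr2. Use of strand would not separate these. The upstream sequences of Notch1 and Smad9 are shown because these genes had the largest gaps between their highest population and the next (4.26 and 2.81 on the log2 scale, against a median of 1.21 over all genes). They are RefSeq windows on GRCm38.p6, 5′ to 3′ on the gene's strand and printed up to the first base of a GENCODE exon of the gene, at chr2:26503825-26504072 (minus strand) and chr3:54755332-54755581 (plus strand). The Smad9 window ends at the start of the gene. The Notch1 window lies 12591 bases inside the span of the gene, since 1 of its 11 GENCODE transcripts starts further upstream and has the window in an intron. Capitals mark the RBPJ core TGGGAA or the GC-rich core GGCGCC known from BMP Smads, each searched on both strands.
Notch1: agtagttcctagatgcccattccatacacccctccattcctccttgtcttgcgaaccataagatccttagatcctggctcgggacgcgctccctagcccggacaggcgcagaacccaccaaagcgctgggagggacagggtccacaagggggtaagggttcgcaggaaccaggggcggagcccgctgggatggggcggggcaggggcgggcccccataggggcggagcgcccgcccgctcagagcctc
Smad9: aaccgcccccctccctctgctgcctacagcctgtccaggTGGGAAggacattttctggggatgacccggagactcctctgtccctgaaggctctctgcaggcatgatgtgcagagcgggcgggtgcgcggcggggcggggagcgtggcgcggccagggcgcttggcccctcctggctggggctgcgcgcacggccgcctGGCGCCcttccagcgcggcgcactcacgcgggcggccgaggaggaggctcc
The Smad9 window held TGGGAA near its 5′ end and GGCGCC starting 51 bases before the gene's start, and the Notch1 window held neither. Among 32851 windows of 250 bases upstream of genes, 21.6% held TGGGAA and 9.59% held GGCGCC on either strand, so these matches are a description of letters and say nothing about binding. The RefSeq window of Bmpr2 lies wholly in GENCODE exons and is not printed.

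The deposited values are estimated counts that had been made nearly equal in distribution between cells, with column totals differing by 0.101%, so sequencing depth is unknown. A value below is this deposited signal. A level is the mean of log2(value + 1) over the cells of a population, given with the SD between cells, and for low genes the pseudocount makes such differences too small. Presence means that a gene was among the 500 highest of a cell, which could not be scored in 2 NB cells that had too few detected genes. A gene is detected where its value is above the lowest of the cell. The median number of detected genes was 1397 in OligNBL, 950.5 in OL, 1187 in O, 1161 in NBL and 1114 in NB cells. A difference of at least 1 was called, a rule of size only. In each population, cells whose titles carry neighbouring cell numbers were alike, with mean correlations of 0.487 to 0.56 for cells at most 4 numbers apart and 0.194 to 0.345 for those 17 or more apart. When alike cells were joined (mean correlation 0.4), 149 cells fell into 21 sets, each with 3 or more cells from 1 population. Sets are named below by the first and last of their cells in the labels' numbering (CRBT1 and so on). No pair of cells had identical values.

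The populations were checked against marker genes. Of 13 measured mature oligodendrocyte markers 0 had a level of at least 1 in OligNBL, 13 in OL, 13 in O, 1 in NBL and 1 in NB. Their summed level per cell had a median of 0.856 in OligNBL, 116.3 in OL, 84.1 in O, 0.835 in NBL and 1.60 in NB. Of 15 neuroblast markers 12 reached a level of 1 in OligNBL, 7 in OL, 6 in O, 13 in NBL and 9 in NB. Of 6 measured oligodendrocyte progenitor markers 4 reached 1 in OligNBL, 2 in OL, 3 in O, 2 in NBL and 0 in NB; Cspg4, the only measured one of 8 mural cell markers and also one of these, had a level of 4.08 ± 5.44 in OligNBL, 0.10 ± 0.46 in OL, 1.62 ± 2.01 in O, 0.11 ± 0.52 in NBL and 0.81 ± 1.72 in NB. Endothelial cells, which use Notch1 and Bmpr2, could be checked with 1 of 12 listed markers, Pecam1, whose level was 8.11 in OligNBL, 8.49 in OL, 10.53 in O, 8.59 in NBL and 6.54 in NB and thus high in all 5 populations; the part of such cells or their RNA in the results was not tested. Of 11 astrocyte and neural stem cell markers S100b (0.90 in OligNBL, 2.30 in OL, 1.93 in O, 1.07 in NBL and 1.42 in NB) and Fabp7 (1.95 in OligNBL, 0.33 in OL, 0.23 in O, 0.60 in NBL and 0.22 in NB) were measured. The part of these markers in the results was not tested, and the listed microglia and ependymal markers were not analysed here. Listed ligands and target genes of both pathways, and the listed genes of the TGF-beta and activin branch, were not analysed here.

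Notch1 was high in a block of GFP cells of demyelinated mice and low elsewhere. In OligNBL its median value was 0 and the highest 36.4, in CRBT113, with 3 of 40 cells detected. In OL the median was 0 and the highest 7.73, with 3 of 22 cells detected. In O the median was 0 and the highest 31.8, with 10 of 29 cells detected. In NBL cells the value ran from 0 through a median of 1.72 to 59402 (n = 27), and 16 cells had a detected value. Of the NBL cells, 12 had 100 or more and the other 15 had less than 5, so the population was split in its own levels. In NB the median was 0 and the highest 9.84, with 4 of 37 cells detected. No cell outside NBL reached 100, while NBL overlapped every other population at 0.

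The Notch1 level was 0.15 ± 0.83 in OligNBL (SD, n = 40), 0.30 ± 0.84 in OL (n = 22), 0.70 ± 1.42 in O (n = 29), 4.97 ± 5.47 in NBL (n = 27) and 0.15 ± 0.60 in NB (n = 37). NBL exceeded the next population, O, by 4.26, which is less than the SD among NBL cells, and the other 4 levels lay within 1 SD of each other. NBL minus NB was 4.81, and 17.4% of all 3422 genes were higher by at least 1 in that comparison. OligNBL minus NBL was -4.82, where 20.3% of genes were lower by at least 1. With each set of alike cells given the same weight the differences were 3.15 and -3.03. Notch1 was present in 1 of 40 OligNBL cells (2.5%), 0 of 22 OL cells, 3 of 29 O cells (10.3%), 12 of 27 NBL cells (44.4%, exact Clopper-Pearson 95% interval 25.5 to 64.7%) and 0 of 35 NB cells. By the same interval the zeros allow shares of up to 15.4% in OL and 10.0% in NB. These intervals and limits cover counting error only, as if cells were independent.

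**Figure D1:**
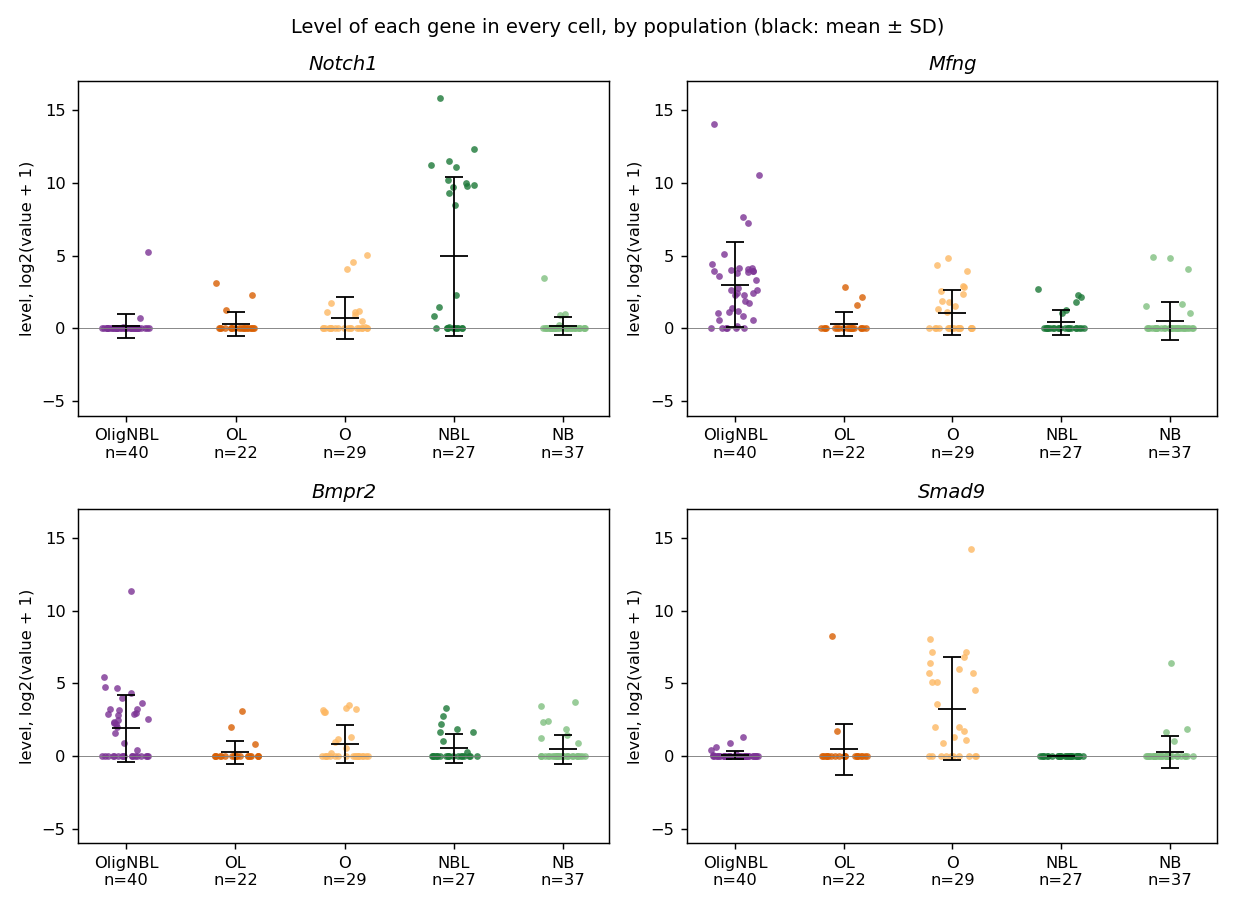
Level of each gene, log2(value + 1), in every cell of the 5 populations; each point is a cell and the black bars are the mean ± SD. Notch1 was split within NBL, Mfng and Bmpr2 were spread over many OligNBL cells, and Smad9 was highest in O and at 0 in all 27 NBL cells.

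The high Notch1 cells followed the cell numbers. All 11 cells of the set CRBT66 to CRBT77 had Notch1 present, with values from 352 in CRBT72 to 59402 in CRBT73, where Notch1 was the 14th highest gene (rank 14), and a set level of 10.64 ± 1.95 (SD, n = 11). The set CRBT78 to CRBT84 had a level of 2.23, which came mainly from CRBT84 (5173), as its 6 other cells lay between 0 and 3.99. The sets CRBT62 to CRBT65 and CRBT58 to CRBT61 had levels of 0.36 and 0. Without the set of 11 cells, NBL minus NB was 0.91 and OligNBL minus NBL was -0.91, so both calls ended. The set's median of 1126 detected genes lay between 776 and 1309 in the other NBL sets. Its summed neuroblast marker level ran from 46.5 to 69.6 over its cells. The median of that sum, 55.4, lay within the medians of 27.4 to 65.3 of the other NBL sets. A gap of at least 8.41 between the highest and the next set was found for 5.06% of all genes, 20 of them highest in these same 11 cells. Cells of different populations were joined as alike in 2 cases. In the one with 3 NBL and 6 NB cells, Notch1 was at 0 in NBL and at 0.57 in NB; the other, of OL and O cells, is given with Smad9.

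Mfng, the fringe enzyme, was found in most double-reporter cells, in all of their sets. In OligNBL its value ran from 0 through a median of 4.82 to 16643, in CRBT102, and 34 of 40 cells had a detected value (85%). In OL the median was 0 and the highest 6.35, with 3 of 22 cells detected. In O the median was 0 and the highest 27.5, with 12 of 29 detected. In NBL the median was 0 and the highest 5.65, with 6 of 27 detected. In NB the median was 0 and the highest 29, with 6 of 37 detected. OligNBL overlapped every other population, but 4 OligNBL cells and no cell of the other populations reached 100.

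The Mfng level was 3.00 ± 2.91 in OligNBL (SD, n = 40), 0.30 ± 0.80 in OL (n = 22), 1.09 ± 1.52 in O (n = 29), 0.42 ± 0.85 in NBL (n = 27) and 0.49 ± 1.31 in NB (n = 37). The gap of OligNBL to O, the next population, was 1.91 and less than the SD of OligNBL, and the other levels lay within 1 SD of each other. OligNBL minus OL was 2.70, where 27.3% of all genes were higher by at least 1, and OligNBL minus NBL was 2.58, where 25.7% were. The differences were 1.17 and 1.15 with a pseudocount of 10. Mfng was present in 16 of 40 OligNBL cells (40%, interval 24.9 to 56.7%), 0 of 22 OL cells, 3 of 29 O cells, 0 of 27 NBL cells and 3 of 35 NB cells.

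Within OligNBL, Mfng was highest in the sets that hold most of the lower cell numbers. The set CRBT101 to CRBT110 had a level of 4.92, and its 10 cells all had a detected value, 9 of them between 9.08 and 20.4 beside the 16643 of CRBT102. The set of CRBT10, CRBT11, CRBT112 and CRBT113 had a level of 4.65, the set CRBT114 to CRBT121 one of 3.46, the set CRBT123 to CRBT134 one of 2.02 and the set CRBT135 to CRBT142 one of 1.44. The summed level of the 6 oligodendrocyte progenitor markers had medians of 16.05, 44.6, 9.74, 4.82 and 7.71 in these sets, in the same order, and was thus also higher in the 2 sets with the highest Mfng; its part in the Mfng level was not tested. The 5 set levels of Mfng all lay above those of the 4 OL sets (0 to 0.96) and of the 4 NBL sets (0 to 0.77). Over all genes, set levels lay apart in this way, in either direction, for 13.5% of genes between OligNBL and OL and for 10.3% between OligNBL and NBL. Mfng was the only member whose sets lay apart, and did so in these 2 of the 5 comparisons. Without the set CRBT101 to CRBT110 the differences were 2.06 against OL and 1.94 against NBL. OligNBL also had the most detected genes of the populations. Among cells with at least 1000 of them the calls kept their direction and size class. That filter kept 38 of 40 OligNBL, 9 of 22 OL and 22 of 27 NBL cells and does not make the numbers of detected genes equal. The part of detected genes in the Mfng level was not tested.

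**Figure D2:**
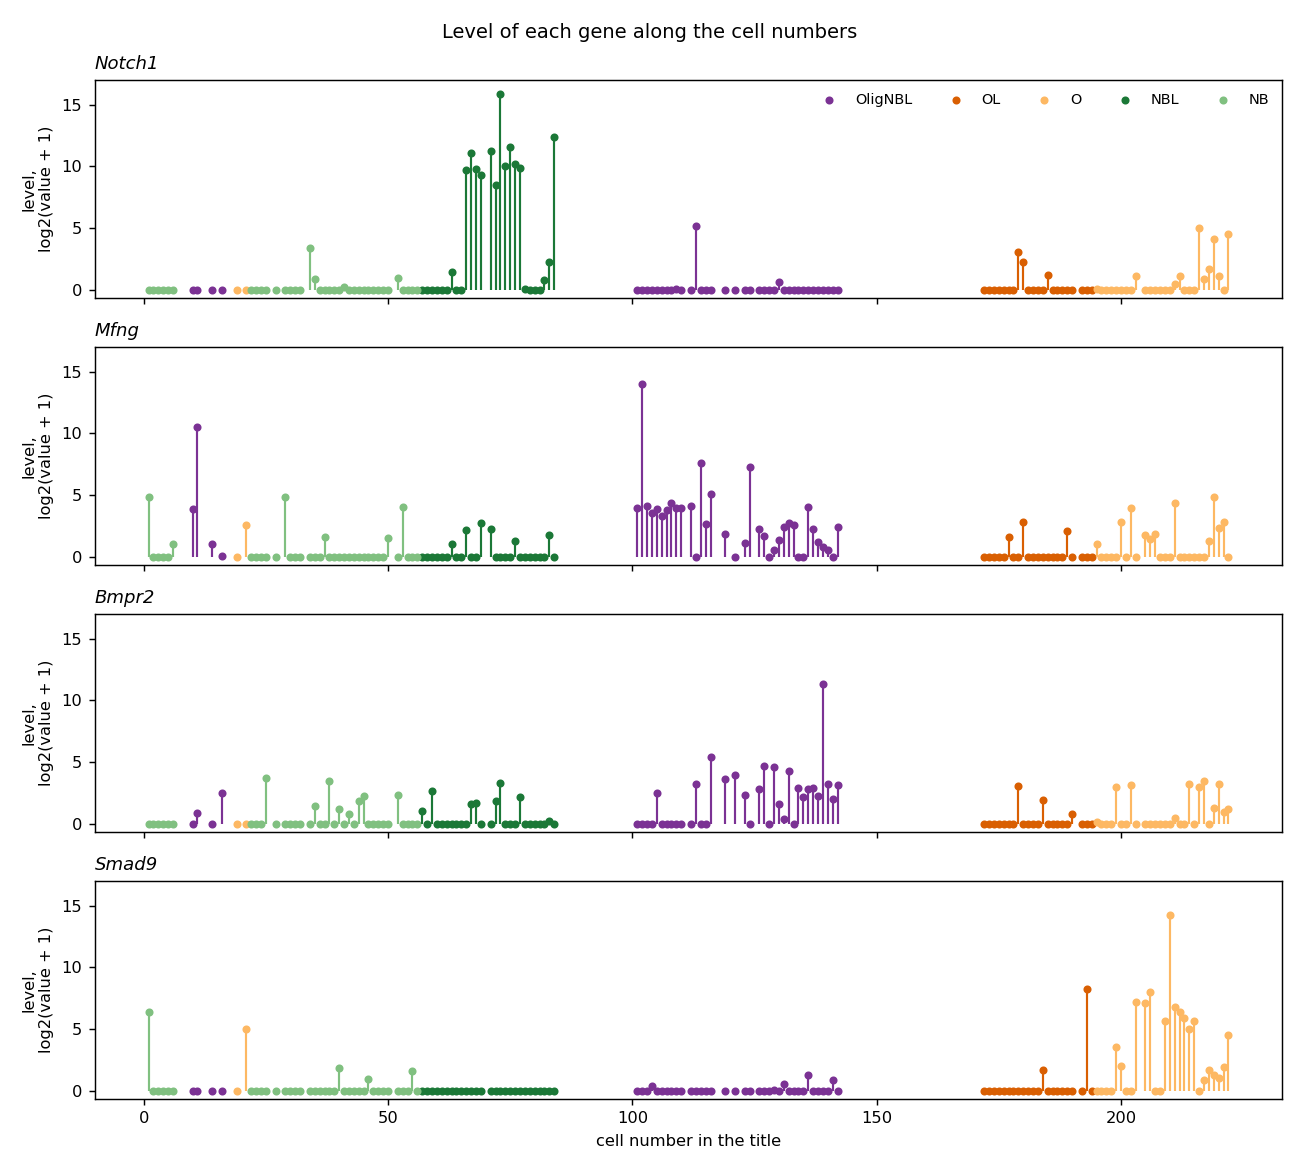
Level of each gene, log2(value + 1), against the cell number in the title, coloured by population; each line and point is a cell. Notch1 stood in the NBL cells CRBT66 to CRBT77 and in CRBT84, Smad9 in the O cells CRBT203 to CRBT215 other than CRBT207 and CRBT208, which were at 0, and in OligNBL Mfng was higher in the earlier and Bmpr2 in the later numbers.

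Of the other Notch list genes, 15 of 61 were measured, and each comparison had some higher and some lower by at least 1. Between OligNBL and OL 2 were higher and 3 lower by at least 1, beside 27.3% higher and 21.1% lower of all genes, with a median of 0.04 against 0.13 over all genes. Between OligNBL and NBL 2 were higher and 5 lower, beside 25.7% and 20.3% of all genes (median -0.06 against 0.03). Between OL and O 1 was higher and 2 lower, beside 15.9% and 15.7% (median 0.0084 against -0.10). Between NBL and NB 2 were higher and 2 lower, beside 17.4% and 17.3% (median -0.02 against -0.0036). Between O and NB 2 were higher and 3 lower, beside 19.4% and 20.7% (median 0.09 against 0.09). With 15 genes, counts of this size are not read as a result about the list. Aph1a, a subunit of the gamma-secretase that cuts Notch, had a level of 0.14 ± 0.47 in OligNBL, 0 in OL, 0.26 ± 0.75 in O, 1.36 ± 2.75 in NBL and 4.00 ± 4.89 in NB. Psen2, a catalytic subunit of that enzyme, was highest in O, at 3.29 ± 1.15, and between 1.19 and 1.82 elsewhere. The deltex gene Dtx3, whose family modifies Notch by ubiquitin, was at 0.04 in OligNBL, 0 in OL and O, 1.75 in NBL and 2.32 in NB. Maml3, a coactivator of the Notch and RBPJ complex, was at 0.79 in OligNBL, 0.53 in OL, 0.39 in O, 2.08 in NBL and 3.51 in NB. Tle1, a Groucho-type corepressor, was highest in OL (3.03 ± 3.97). All these genes had SDs near or above their highest level, apart from Psen2. Rfng, the other fringe enzyme measured, was at 0.22 in OligNBL, 0.22 in OL, 0.08 in O, 1.56 in NBL and 0.00023 in NB, so its highest population was not that of Mfng; it was named after its values were seen.

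Bmpr2, the type II BMP receptor, was detected in many OligNBL cells at low values. In OligNBL its value ran from 0 through a median of 2.56 to 2602, in CRBT139, with the next highest at 41.8 and 24 of 40 cells detected. In OL the median was 0 and the highest 7.73, with 3 of 22 cells detected. In O the median was 0 and the highest 10.5, with 11 of 29 detected. In NBL the median was 0 and the highest 9.02, with 8 of 27 detected. In NB the median was 0 and the highest 12.5, with 8 of 37 detected. Apart from CRBT139, all Bmpr2 values lay at or below 41.8, so its differences rest on how many cells had a low value.

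The Bmpr2 level was 1.91 ± 2.30 in OligNBL (SD, n = 40), 0.27 ± 0.78 in OL (n = 22), 0.81 ± 1.30 in O (n = 29), 0.55 ± 0.99 in NBL (n = 27) and 0.47 ± 1.01 in NB (n = 37). The gap of OligNBL to O was 1.10, below the median gap of 1.21 over all genes. When the populations were ranked by level, neighbours differed by less than 1 SD. OligNBL minus OL was 1.64, where 27.3% of all genes were higher by at least 1, and OligNBL minus NBL was 1.36, where 25.7% were. With a pseudocount of 10 these 2 differences were 0.61 and 0.56 and were no longer called. Among cells with at least 1000 detected genes they were 1.27 and 1.38, though that filter does not make the numbers of detected genes equal. OligNBL had the most detected genes, and their part in the Bmpr2 level was not tested. Presence was seen in 7 of 40 OligNBL cells (17.5%, interval 7.34 to 32.8%), in no OL, O or NBL cell and in 1 of 35 NB cells. In OligNBL Bmpr2 was highest in the later numbers, with set levels of 2.62 (CRBT114 to CRBT121), 2.18 (CRBT123 to CRBT134) and 3.75 (CRBT135 to CRBT142), against 0.25 in the set CRBT101 to CRBT110 and 1.04 in CRBT10, CRBT11, CRBT112 and CRBT113. In the set CRBT135 to CRBT142 all 8 cells had a detected value, 7 of them between 3.07 and 8.5. Without that set OligNBL minus NBL was 0.90 and not called, and OligNBL minus OL was 1.18.

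Smad9, which carries the BMP signal to the nucleus, was high in healthy Tomato cells and listed at 0 in every NBL cell. In OligNBL its highest value was 1.46, with 6 of 40 cells detected. In OL the median was 0 and the highest 309, in CRBT193, with 2 of 22 detected. In O the value ran from 0 through a median of 2.94 to 19641, in CRBT210, and 19 of 29 cells had a detected value. In NBL it was detected in 0 of 27 cells, a count that leaves room for a share of 11.1%. In NB the median was 0 and the highest 84, in CRBT1, with 4 of 37 detected. Values of 10 or more were found in no OligNBL cell, 1 OL cell, 13 O cells, no NBL cell and 1 NB cell.

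The Smad9 level was 0.09 ± 0.27 in OligNBL (SD, n = 40), 0.46 ± 1.79 in OL (n = 22), 3.26 ± 3.53 in O (n = 29), 0 in each of 27 NBL cells and 0.30 ± 1.12 in NB (n = 37). O exceeded the next population, OL, by 2.81, less than the SD among O cells. OL minus O was -2.81, where 15.7% of all genes were lower by at least 1, and O minus NB was 2.97, where 19.4% were higher. The differences were -1.38 and 1.51 with a pseudocount of 10. Smad9 was present in 0 of 40 OligNBL cells, 1 of 22 OL cells, 13 of 29 O cells (44.8%, interval 26.4 to 64.3%), 0 of 27 NBL cells and 1 of 35 NB cells.

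The O cells with high Smad9 were again close in cell number. All 10 cells of the set CRBT203 to CRBT215, without CRBT207 and CRBT208, had Smad9 present, at values between 32.4 and 19641 and a set level of 7.23, while the set of CRBT195 to CRBT202 and CRBT208 (9 cells) had 0.63 and the set of CRBT21, CRBT207 and CRBT216 to CRBT222 had 1.86. In the 3 OL cells (CRBT192 to CRBT194) that were joined as alike with the O set of 9 cells starting at CRBT195, the Smad9 level was 2.76 in OL, all of it from CRBT193, against 0.63 in O, which is opposite in sign to the difference of the whole populations. Without the set of 10 cells OL minus O was -0.72 and O minus NB was 0.88, so both calls ended. The median number of detected genes was 1179 in that set, against 1010 and 1279 in the other O sets, and its summed mature oligodendrocyte marker level had a median of 91.4, against 84.1 and 78.7. Its summed neuroblast marker level had a median of 19.6, against 9.25 and 12.7, and the part of this in the Smad9 level was not tested. A gap between the highest and the next set as large as that of Smad9 (4.47) was found for 760 genes, 22.2% of all.

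**Figure D3:**
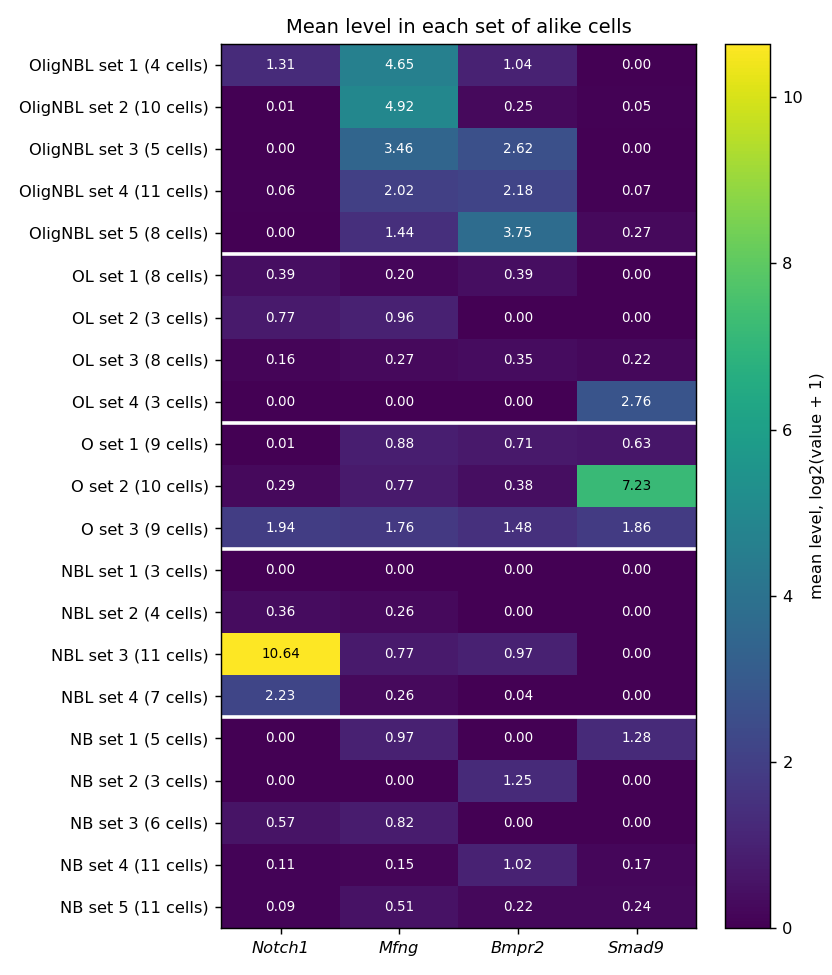
Mean level, log2(value + 1), of each gene in the 21 sets of alike cells; rows are sets grouped by population with white lines between populations, and the number in each box is the level. Notch1 reached 10.64 in NBL set 3 and Smad9 7.23 in O set 2, while Mfng was at 1.44 or more in all 5 OligNBL sets.

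Of the other BMP list genes, 5 of 50 were measured. In OligNBL against OL 2 were higher and 0 lower by at least 1, beside 27.3% higher and 21.1% lower of all genes (median 0.71 against 0.13 over all genes). In OligNBL against NBL 0 were higher and 2 lower, beside 25.7% and 20.3% (median 0.39 against 0.03). In OL against O 0 were higher and 1 lower, beside 15.9% and 15.7% (median -0.64 against -0.10). In NBL against NB 1 was higher and 1 lower, beside 17.4% and 17.3% (median 0.53 against -0.0036). In O against NB 0 were higher and 2 lower, beside 19.4% and 20.7% (median 0.45 against 0.09). These are counts of 5 genes and nothing is read from them. Smad5, which has the same role as Smad9, had a level of 1.76 ± 3.44 in OligNBL, 0.05 ± 0.26 in OL, 1.29 ± 1.93 in O, 1.38 ± 2.85 in NBL and 5.51 ± 4.62 in NB, and was present in 23 of 35 NB cells; Smad5 was thus highest in NB and Smad9 in O. Skil (SnoN), a repressor of Smad activity, was at 0.23 ± 0.70 in OligNBL, 0.04 ± 0.17 in OL, 0.60 ± 1.05 in O, 4.31 ± 2.29 in NBL and 3.79 ± 5.24 in NB. Zeb2, a Smad-binding repressor, was at 1.34 ± 1.72 in OligNBL, 0.62 ± 1.10 in OL, 1.54 ± 1.71 in O, 3.55 ± 2.54 in NBL and 0.61 ± 1.09 in NB. Rgmb, a BMP co-receptor, was at 1.48 in OligNBL, 0 in OL, 0.64 in O, 1.01 in NBL and 0.13 in NB. Fstl1, a secreted protein known to bind BMP ligands, stayed between 0.25 and 1.15.

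**Figure D4:**
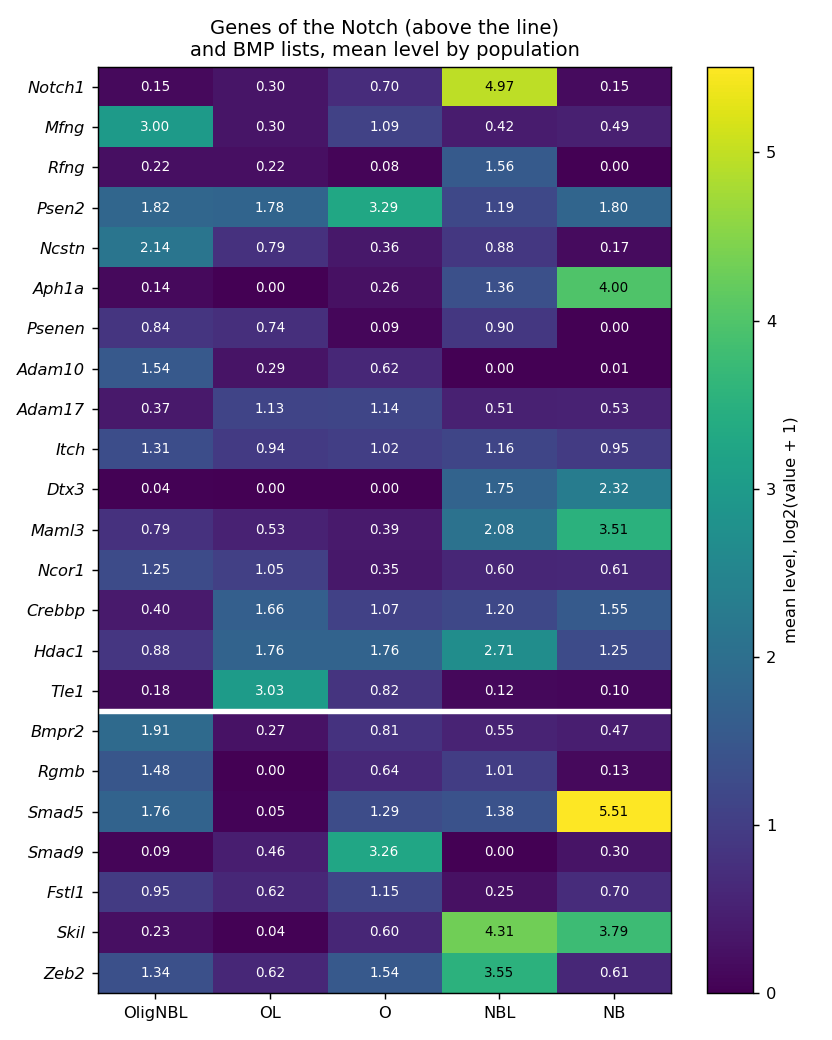
Mean level, log2(value + 1), of the Notch list genes reported here (above the white line) and the 7 measured BMP list genes in each population; the number in each box is the level. Members of a pathway were highest in different populations, with Smad5 at 5.51 in NB, Smad9 at 3.26 in O and Bmpr2 at 1.91 in OligNBL.

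Set beside each other, 8 of the 20 differences of the members in the 5 comparisons reached 1. OligNBL against OL, the double-reporter with the Tomato cells of demyelinated mice, gave Mfng and Bmpr2 higher by 2.70 and 1.64 and left Notch1 at -0.15 and Smad9 at -0.37. OligNBL against NBL gave the same genes higher by 2.58 and 1.36 and Notch1 lower (-4.82), with Smad9 at 0.09. OL against O gave Smad9 lower (-2.81, 15.7% of genes lower), with Mfng at -0.78, Bmpr2 at -0.54 and Notch1 at -0.40. NBL against NB gave Notch1 higher (4.81), with Smad9 at -0.30, Mfng at -0.07 and Bmpr2 at 0.08. O against NB gave Smad9 higher (2.97), with Mfng at 0.60, Notch1 at 0.55 and Bmpr2 at 0.34. The 8 calls count both directions, so the shares of all genes in both directions form their background. Of all genes 27.3% were higher and 21.1% lower by at least 1 in OligNBL against OL, and 25.7% and 20.3% in OligNBL against NBL. The shares were 15.9% and 15.7% in OL against O, 17.4% and 17.3% in NBL against NB, and 19.4% and 20.7% in O against NB. The number of calls is near this background and is not read as a result about the members. Comparisons that share a population are not independent.

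Presence of the members was also counted cell by cell. Among 153 cells, 97 had none of the 4 present, 51 had 1, 5 had 2 and none had more. Notch1 and Mfng, the receptor and an enzyme that modifies it, were both present in 1 cell, an O cell, of 16 and 22 cells with each. Bmpr2 and Smad9, the receptor and a Smad downstream, were both present in 0 cells, of 8 and 15 with each. As each member was present in 8 to 22 of 153 cells, few shared cells were possible, and nothing is read from how many were found. At any detected value, Bmpr2 and Smad9 were both found in 15 cells, of 54 and 31 with each, 8 of the 15 being O cells. All 4 genes were detected together in 3 cells, all of them O. In each of these, 2 of the members had the same low value, so the joint detection rests partly on low values. These were Notch1 and Bmpr2 at 0.45 in CRBT211, Bmpr2 and Smad9 at 1.54 in CRBT219, and Notch1 and Smad9 at 1.17 in CRBT220. In OligNBL, Mfng and Bmpr2 were both detected in 19 of 40 cells and both present in 1. Their levels had a Pearson correlation of -0.38 over 40 cells, which is a description only. Over the sets their orders were opposite, except that CRBT114 to CRBT121 lay above CRBT123 to CRBT134 for both genes. The part of this order in the correlation was not tested.

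The genes most like each member over all cells, of 3192 compared, are given with Pearson's r. For Notch1 they were Bad (r = 0.968), Snx17 (0.965) and Zfp462 (0.95); Bad, a promoter of apoptosis, was present in 14 cells and Notch1 in all 14 of these. For Mfng they included Tpst2 (0.835) and Sap30 (0.835); Tpst2, a Golgi enzyme that sulfates tyrosines, was present together with Mfng in 16 of its 18 cells. For Bmpr2 they were Mrpl53 (0.762), Rcn3 (0.744) and Arl3 (0.735). For Smad9 they were 2010111I01Rik (0.932), Cltb (0.926) and Cd82 (0.925). Cells of a set are alike over many genes and not independent. Over the 21 set means the same correlations were 0.858 to 0.987, while by Spearman correlation over all cells they were 0.477 to 0.706. In the set means, 1 set stood at 10.64 for Notch1 with the next at 2.23, and 1 at 7.23 for Smad9 with the next at 2.76. How far Pearson's r rests on these sets was not tested.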

How the data were processed

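Polyadenylated RNA of sorted mouse cells was measured by SMART-Seq2. The submitters' processing notes name kallisto, limma and the build GRCm38; their versions, any use of strand and the way the 3422 genes were chosen are not stated in these sources. The deposited values, named estimated counts by the authors, are treated as a normalized signal: they are not whole and column totals ran from 5155899 to 5161091. Depth per cell is therefore unknown and no count test was used. The labels' population name gave each cell its group.

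Levels, presence, set means and correlations were computed with Python 3.11.15, numpy 2.4.6, pandas 2.3.3 and scipy 1.17.1; figures used matplotlib 3.10.9. The pseudocount was 1. Sets came from average linkage of cells, with the correlation of their log2(value + 1) as likeness. Genes named beside the members were the 3 with the highest Pearson correlation over all cells among genes detected in at least 20, and, per pathway list, up to 6 with the widest range of population levels. The level step was tested on shuffled real values with a known shift added, which checks the calculation only. The members, lists, markers and alternatives were chosen with earlier results of these data known. Alternatives covered pseudocounts of 10 and 0.1, equal weight of sets, cells with at least 1000 genes, cell numbers above 21, leaving out the 2 highest cells, ranks, presence among 300 or 700 genes or at any detected value, joining at 0.5 or 0.35, and the measure of likeness. Leaving out the highest set was added after seeing the data. No doublet caller was run, and levels use every cell. A few genes that the naming rule or the marker lists pick are not reported here; counts and sums over lists include them.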

Additional observations from a re-analysis of the deposited data

How the results depend on the processing

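Over 8 alternatives, the 20 differences of the members gave 160 values, of which 149 kept their direction where called and their side of the threshold of 1 and none turned a called direction. The 20 on the rank scale have no threshold. Of these, the 8 called differences were judged by direction only, and the 12 not called were counted as kept without a check. As values were nearly equal in distribution between cells, ranks largely repeat the main measure. Without the highest set of the higher population, OligNBL minus NBL was -0.91 and NBL minus NB 0.91 for Notch1, OL minus O was -0.72 and O minus NB 0.88 for Smad9, and OligNBL minus NBL was 0.90 for Bmpr2. With a pseudocount of 10, Bmpr2 was at 0.61 for OligNBL minus OL and 0.56 for OligNBL minus NBL. A pseudocount of 0.1, which widens differences of low genes by construction, brought Notch1 in O minus NB to 1.17, Mfng in OL minus O to -1.62 and in O minus NB to 1.35, and Bmpr2 in OL minus O to -1.19. Both Mfng calls, and no other of the 8, held in all 8 alternatives. Of 20 shares of presence, 6 left their interval with 300 genes, 2 with 700, 11 at any detected value and 1 without early cell numbers. Of 20 counts of pathway genes, 10 moved by over 1.5 times with a pseudocount of 10. Joining at 0.35 moved 1 of 4 highest set levels and joining at 0.5 none. Of the 12 most alike genes, 7 stayed in the first 3 by Spearman correlation and 5 over set means. No paired analysis was possible because the labels tie no cell to a mouse and the numbers in the titles only name cells. Depth is unknown, so a gene listed at 0 may have been missed.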
